A study of Sus scrofa with 21 samples.

Results

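The genes described here encode the mitochondrial ribosome and the machinery that brings proteins into mitochondria. They were taken from the porcine array as every probe set whose platform gene symbol starts with MRPL (proteins of the large ribosomal subunit), MRPS (small subunit), TIMM (translocases of the inner membrane) or TOMM (translocase of the outer membrane). No filter on brightness was used, and each gene was represented by its probe set with the highest mean over 21 arrays. This gave 77 genes (37 MRPL, 22 MRPS, 11 TIMM and 7 TOMM) on 100 probe sets, of 6790 genes with a single platform symbol on 24123 probe sets. Of the 77 genes, 76 were above 3 on the log2 scale in at least 10 of 21 arrays. The exception was MRPS23, which was above 3 in 0 arrays.

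Mitochondria keep a small genome that encodes core subunits of the respiratory chain, and a ribosome of their own translates it. All proteins of that ribosome, and nearly every other mitochondrial protein, are encoded in the nucleus and made in the cytosol, so they have to be imported. The TOM complex is the entry gate of the outer membrane, small TIM chaperones guide hydrophobic proteins across the intermembrane space, and the TIM23 and TIM22 complexes pass or insert proteins at the inner membrane. Heart muscle is among the tissues richest in mitochondria.

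The arrays came from pigs, 3 per group. The 9 infarcted animals were female Landrace x Large White crosses, and the sources used here state neither sex nor breed of the controls. In the infarcted animals a branch of the circumflex artery was tied permanently, and tissue was taken at day 6, 30 or 45, called 1, 4 and 6 weeks here. The infarct core (IC) was cut from the centre of the left ventricular scar, and the remote myocardium (RM) was non-infarcted interventricular septum of the same 9 pigs (pigs 7, 8 and 9 at 1 week, 18, 20 and 22 at 4 weeks, and 2, 3 and 5 at 6 weeks). The control myocardium (CM) came from 3 other pigs (30, 31 and 33), which the labels describe as sham-operated and day 0, so that no control was kept for as long as the infarcted animals. The study's text calls the same animals healthy, and which of these they were is not settled here. Neither the text nor the labels give the part of the heart the control pieces came from. A difference in site between CM and IC or RM cannot be told apart from infarction. Each array held RNA of 1 piece of tissue from 1 pig. In such bulk tissue, fewer cells of a type cannot be told apart from less RNA per cell. All values below are RMA log2 levels or log2 fold changes (log2 FC). Levels of different probe sets were not compared, because hybridization differs between them.

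In the infarct core the mitochondrial ribosome and import genes were lower than in control myocardium at each stage. The number lower was 62 of 77 at 1 week, 72 at 4 weeks and 65 at 6 weeks by limma with an adjusted P value under 0.05, and 0, 1 and 0 genes were higher. Over all 24123 probe sets, 36.9%, 37.3% and 30.1% passed the test at these stages, and 19.5%, 19.9% and 15.7% were lower. Among the 12180 probe sets above 3 in at least 10 arrays, 28.2%, 29.1% and 26% were lower. The median log2 FC of the 77 genes was -0.91 at 1 week (quartiles -1.10 and -0.57), -1.08 at 4 weeks (quartiles -1.45 and -0.78) and -0.86 at 6 weeks (quartiles -0.99 and -0.65), against -0.11, -0.07 and -0.05 for all probe sets. The middle gene was thus at 53.4%, 47.3% and 55.1% of its control level. Standard errors of single log2 FC values lay between 0.114 and 0.303, with a median of 0.176.

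Most of these genes were lower at every stage. The test was passed downwards at 1, 4 and 6 weeks by 58 genes, or 75.3%, where 10.7% of all probe sets and 18.6% of those above the brightness limit did so. The 3 comparisons share the same 3 control arrays. All 3 infarct core arrays were below all 3 control arrays for 66 genes at 1 week, 71 at 4 weeks and 65 at 6 weeks, a separation that 31.7%, 26.9% and 23% of all probe sets showed. With 3 arrays against 3, an exact permutation test of a single gene cannot go below p = 0.1, so the P values rest on the limma fit across all probe sets.

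**Figure D1:**
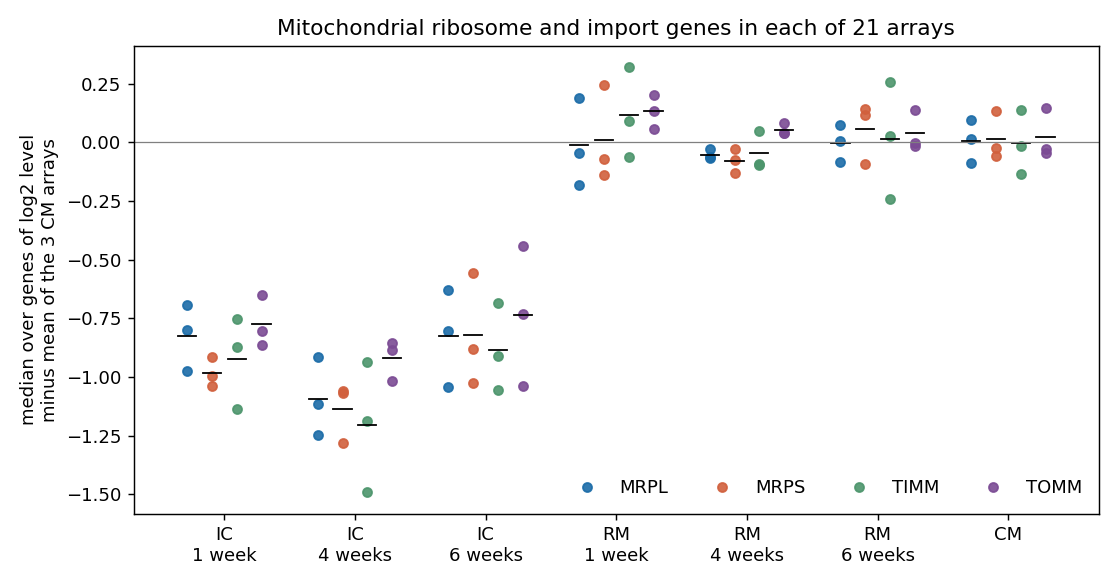
Median over the genes of each family of the log2 level minus the mean of the 3 CM arrays (vertical axis, log2 units), in each of 21 arrays (points), with the mean of each group's 3 arrays as a bar. Every infarct core point lies below every remote and control point of its family, and the lowest group means are those of IC at 4 weeks.

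The large subunit of the mitochondrial ribosome had 30, 36 and 32 of its 37 measured genes lower in the infarct core than in control myocardium at the 3 stages, with median log2 FC of -0.91, -1.08 and -0.82. MRPL28 had the smallest P value of the family at 1 week. Its level was 6.65, 6.88 and 6.91 in the infarct core at 1 week, 7.13, 7.09 and 7.10 at 4 weeks and 7.44, 7.40 and 7.18 at 6 weeks, against 8.17, 8.31 and 8.59 in control myocardium. No infarct core array reached the control range, and the log2 FC was -1.54 at 1 week (SE 0.13, limma adjusted p = 5.3e-08). MRPL39 was at 7.43, 6.85 and 7.43 in the infarct core at 1 week and at 6.78, 7.23 and 6.83 at 4 weeks, against 8.64, 8.89 and 8.94 in control myocardium. It fell by 1.59 at 1 week (SE 0.19, limma adjusted p = 2.6e-06) and by 1.88 at 4 weeks (SE 0.19, adjusted p = 4.0e-07), again with no overlap.

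Other large subunit genes with a strong fall were MRPL19 (log2 FC -1.43, -1.81 and -1.34 at 1, 4 and 6 weeks), MRPL46 (-1.46 at 1 week), MRPL50 (-1.68 at 4 weeks) and MRPL38 (-1.33 at 6 weeks). MRPL45, which sits near the exit of the peptide tunnel and helps to hold the ribosome at the inner membrane, had -1.39, -1.45 and -1.07. The core proteins MRPL2, MRPL3 and MRPL4, which belong to the parts of the ribosome kept since bacteria, had -0.97, -0.94 and -0.74 at 1 week and -1.13, -1.08 and -0.68 at 4 weeks, all past the test. At the base of the stalk that recruits translation factors, MRPL11 had -0.80, -0.98 and -0.82 and MRPL10 -1.13, -0.61 and -0.71, each past the test.

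Large subunit proteins numbered up to 36 are named after bacterial counterparts, and most with higher numbers were added in the mitochondrial lineage. Of the 22 measured genes with the lower numbers 18, 21 and 18 were lower in the infarct core at 1, 4 and 6 weeks, with medians of -0.82, -0.99 and -0.78. Of the 15 genes with higher numbers 12, 15 and 14 were lower, with medians of -0.97, -1.30 and -0.88. The difference between these medians was not tested.

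Of the 22 genes named for the small subunit (MRPS), 18, 20 and 18 were lower in the infarct core than in control myocardium at the 3 stages. Their median log2 FC was -1.03, -1.09 and -0.83. The gene with the largest fall of all 77 at 4 weeks was MRPS35. Its level was 5.80, 5.52 and 5.84 in the infarct core at 1 week, 5.04, 5.29 and 5.00 at 4 weeks and 6.07, 5.86 and 5.67 at 6 weeks, against 7.11, 7.21 and 7.35 in control myocardium. The lowest control array was more than 1 log2 unit above the highest infarct core array. The log2 FC was -1.50 at 1 week (SE 0.15, limma adjusted p = 3.2e-07), -2.11 at 4 weeks (SE 0.15, adjusted p = 9.2e-09), a 4.33-fold lower level, and -1.35 at 6 weeks (SE 0.15, adjusted p = 2.4e-06).

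MRPS28 was at 6.04, 5.42 and 5.92 in the infarct core at 1 week, 5.31, 5.31 and 4.48 at 4 weeks and 6.20, 5.40 and 5.38 at 6 weeks, against 6.87, 6.92 and 7.23 in control myocardium. Its arrays spread widely within the infarct core, pig 22 being lowest at 4 weeks, yet none overlapped with the controls. The log2 FC was -1.98 at 4 weeks (SE 0.25, limma adjusted p = 6.0e-06) and -1.35 at 6 weeks (SE 0.25, adjusted p = 5.0e-04). MRPS36, whose product was later assigned to the alpha-ketoglutarate dehydrogenase complex rather than to the ribosome, fell at all 3 stages (-1.10, -2.04 and -1.18). MRPS22 had -1.40 at 1 week and -1.27 at 6 weeks, and MRPS25 had -1.57 at 4 weeks.

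Small subunit proteins numbered up to 21 again carry bacterial numbers. Of these 11 genes 10, 10 and 9 were lower in the infarct core, with medians of -0.78, -0.93 and -0.72, and of the 11 with higher numbers 8, 10 and 9 were lower, with medians of -1.10, -1.57 and -1.09. The 11 with higher numbers include MRPS30 and MRPS36, whose products were later placed outside the small subunit. The difference between the medians was not tested here either.

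**Figure D2:**
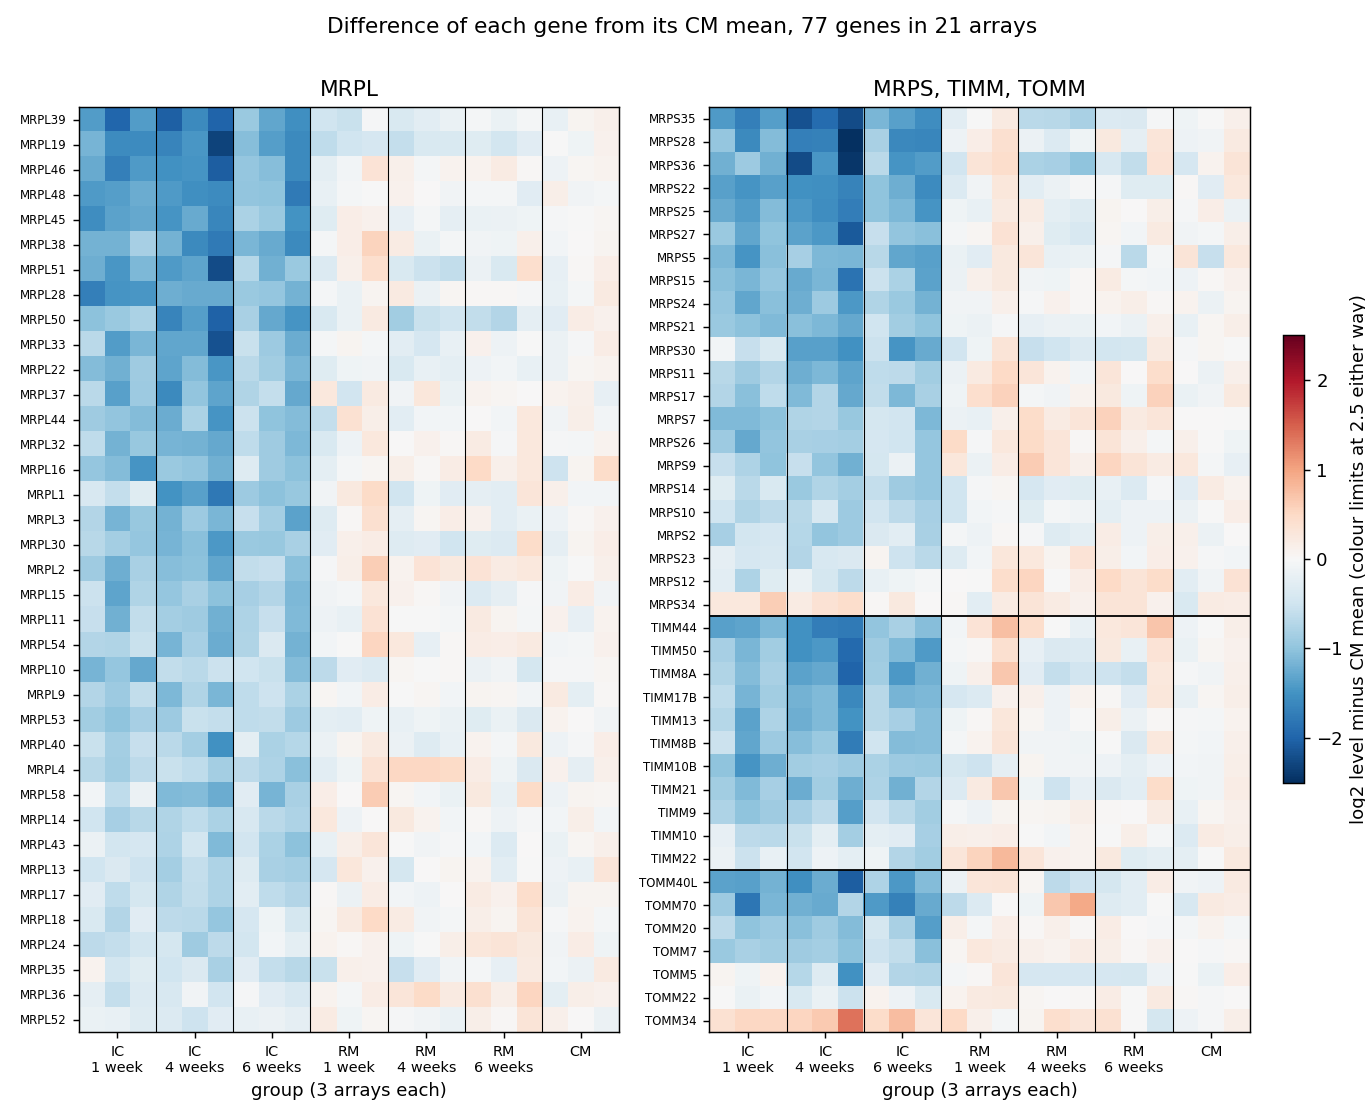
Log2 level of each of the 77 genes (rows, ordered within a family by their mean difference in the infarct core) minus its mean in the 3 CM arrays, in 21 arrays (columns, 3 per group). Blue is below and red above the control mean. The 9 infarct core columns are blue in nearly all rows, and the rows of MRPS34 and TOMM34 are the ones most often in red there.

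The import machinery of the inner membrane had 10 of its 11 measured TIMM genes lower in the infarct core than in control myocardium at each of 1, 4 and 6 weeks, with median log2 FC of -0.91, -1.25 and -0.88. Within the TIM23 complex, which threads proteins with a cleavable presequence through the membrane, 4 of 4 measured genes were lower at each stage (medians -0.94, -1.47 and -0.97). TIMM50, its receptor on the intermembrane space side, was at 5.58, 5.27 and 5.53 in the infarct core at 1 week, 4.89, 4.98 and 4.46 at 4 weeks and 5.51, 5.31 and 4.99 at 6 weeks, against 6.25, 6.45 and 6.52 in control myocardium. The groups did not overlap, and at 4 weeks TIMM50 fell by 1.63 (SE 0.17, limma adjusted p = 9.5e-07).

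TIMM44, which tethers the mitochondrial HSP70 motor to the channel, was at 4.12, 4.15 and 4.35 in the infarct core at 1 week, 3.95, 3.74 and 3.69 at 4 weeks and 4.48, 4.66 and 4.40 at 6 weeks, against 5.33, 5.45 and 5.62 in control myocardium. Its log2 FC was -1.26, -1.67 and -0.95, the last with SE 0.19 and limma adjusted p = 8.1e-04. The channel subunit TIMM17B fell at all 3 stages (-0.89, -1.30 and -0.99), and so did TIMM21, which links the channel to the outer membrane gate (-0.93, -1.11 and -0.90).

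Of the 6 small TIM chaperones of the intermembrane space 6, 6 and 5 were lower at 1, 4 and 6 weeks, with medians of -0.90, -1.11 and -0.87. TIMM10B had the smallest P value of the family. Its level was 5.17, 4.70 and 4.96 in the infarct core at 1 week, against 6.11, 6.09 and 6.32 in control myocardium, a fall of 1.23 (SE 0.12, limma adjusted p = 3.2e-07). With the mean of its probe sets the log2 FC was -0.69 (adjusted p = 3.2e-05), the other TIMM10B probe set being above 3 in 0 arrays. TIMM8A (-0.88, -1.55 and -1.17), TIMM8B (-0.91, -1.25 and -0.88), TIMM13 (-0.94, -1.27 and -0.86) and TIMM9 (-0.88, -0.96 and -0.67) passed the test at all 3 stages. TIMM10 passed it at 1 and 4 weeks (-0.52 and -0.55), and its value at 6 weeks was -0.46 (adjusted p = 0.072). TIMM22, the channel that inserts carrier proteins into the inner membrane, had -0.29, -0.29 and -0.56 and passed the test at 6 weeks alone (SE 0.20, limma adjusted p = 0.042).

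At the outer membrane 4, 6 and 5 of 7 TOMM genes were lower in the infarct core than in control myocardium at the 3 stages, with median log2 FC of -0.86, -0.92 and -0.72. TOMM20, a receptor for presequences, was at 7.24, 6.87 and 6.99 in the infarct core at 1 week, 6.85, 7.00 and 6.80 at 4 weeks and 7.44, 7.07 and 6.52 at 6 weeks, against 7.84, 7.98 and 7.84 in control myocardium. The control arrays lay within a narrow band above all 9 infarct core arrays, and the log2 FC was -0.86, -1.01 and -0.88 (SE 0.17 each, limma adjusted p from 1.1e-04 to 6.8e-04). TOMM7, a small subunit that modulates the stability of the complex, fell at all 3 stages (-0.86, -0.92 and -0.72), with adjusted p = 5.9e-06 and SE 0.12 at 4 weeks. TOMM40L, a paralogue of the channel protein, had a log2 FC of -1.29, -1.61 and -1.09, the one at 4 weeks with SE 0.23 and adjusted p = 2.5e-05.

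TOMM70, the receptor for carrier proteins, was dim. It read 3.06, 2.17 and 2.82 in the infarct core at 1 week, 2.77, 2.70 and 3.23 at 4 weeks and 2.55, 2.27 and 2.70 at 6 weeks, against 3.56, 4.19 and 4.14 in control myocardium. Most infarct core arrays were thus below the brightness limit of 3, so the size of the log2 FC (-1.28, -1.06 and -1.46; SE 0.27, limma adjusted p = 5.2e-04 at 6 weeks) is less certain than that of brighter genes. TOMM22, another receptor, stood at 8.27, 8.10 and 8.21 in the infarct core at 1 week, against 8.30, 8.25 and 8.28 in control myocardium, and these ranges overlapped. Its log2 FC was -0.08, -0.36 and -0.13 (SE 0.12), and the test was passed at 4 weeks alone (adjusted p = 0.026).

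TOMM34, a cytosolic co-chaperone of incoming proteins rather than a membrane subunit, went the other way. Its level was 3.74, 3.88 and 3.88 in the infarct core at 1 week, 3.90, 4.02 and 4.71 at 4 weeks and 3.82, 4.12 and 3.66 at 6 weeks, against 3.24, 3.33 and 3.50 in control myocardium. All 9 infarct core arrays were above the 3 controls, although the probe set was close to the brightness limit. The log2 FC was 0.48 at 1 week (SE 0.22, limma adjusted p = 0.092), 0.85 at 4 weeks (SE 0.22, adjusted p = 0.0044) and 0.51 at 6 weeks (SE 0.22, adjusted p = 0.084), so that the test was passed at 4 weeks alone.

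**Figure D3:**
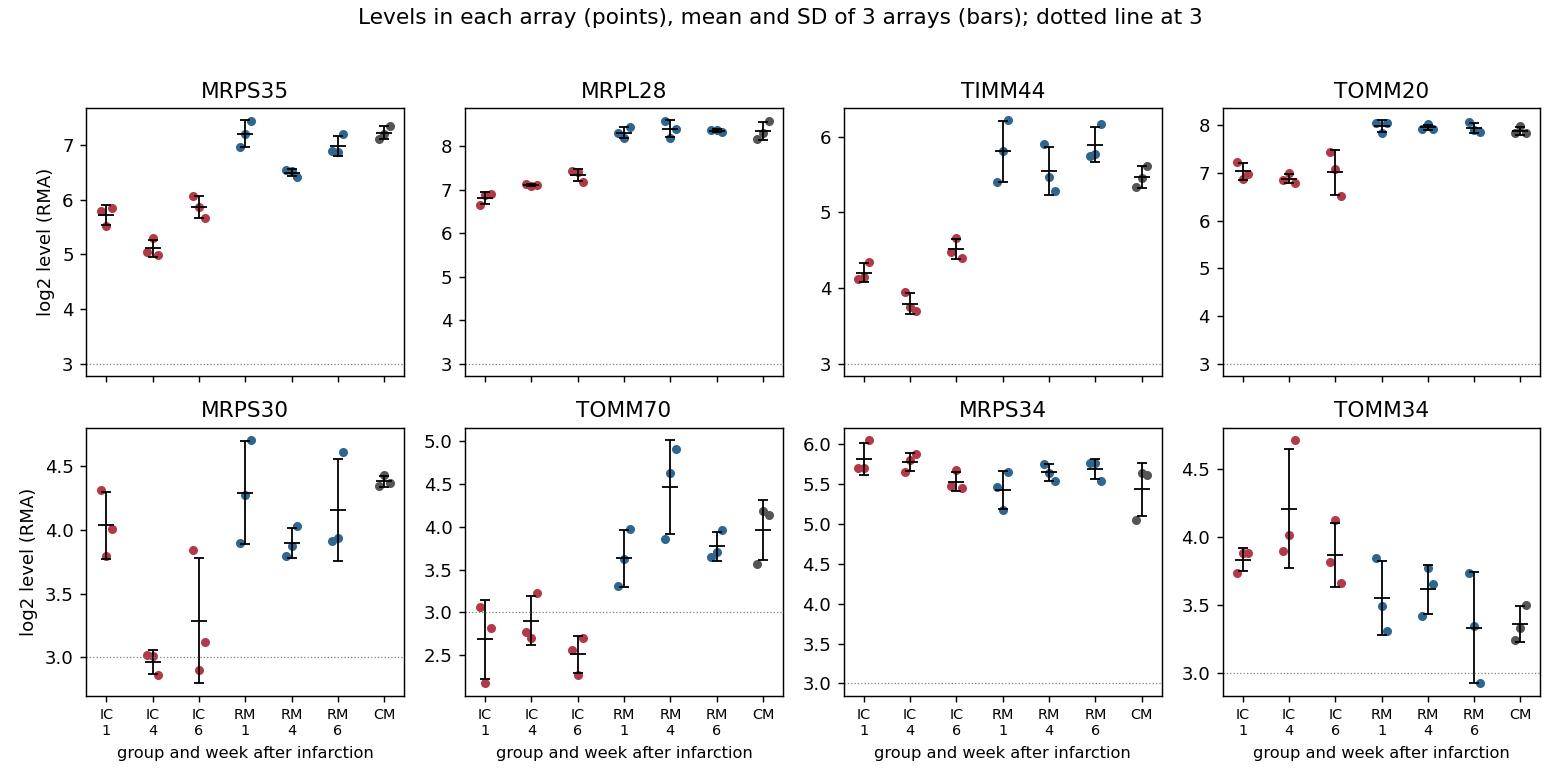
Log2 levels of 8 genes in each array (points: IC red, RM blue, CM grey) with the mean and SD of the 3 arrays of a group (bars); the horizontal axis gives the group and the week after infarction, and the vertical axes differ between genes. MRPS35, MRPL28, TIMM44 and TOMM20 are lower in all infarct core arrays, MRPS30 is close to the controls at 1 week and low at 4 weeks, MRPS34 has infarct core arrays just above the controls at 1 and 4 weeks and among them at 6 weeks, and TOMM34 is higher in the infarct core than in the controls.

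Besides TOMM34, 18 genes did not pass the test at all 3 stages. MRPL18, MRPL24, MRPS9 and TIMM10 passed at 1 and 4 weeks. MRPL1, MRPL13, MRPL43, MRPL58, MRPS30 and TOMM5 passed at 4 and 6 weeks, MRPL35, MRPL52, MRPS23 and TOMM22 at 4 weeks alone, and TIMM22 at 6 weeks alone. MRPS23 was below the brightness limit in every array, with levels between 1.03 and 2.11, and its call (log2 FC -0.50, SE 0.18, limma adjusted p = 0.033) carries little weight.

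The 3 genes that passed at no stage were MRPL36, MRPS12 and MRPS34. MRPL36, a small protein of the large subunit, had -0.39, -0.32 and -0.24 at 1, 4 and 6 weeks (SE 0.15, limma adjusted p = 0.052, 0.10 and 0.26). MRPS12, which lies at the decoding centre, had -0.44, -0.41 and -0.12 (SE 0.19). MRPS34, a mitochondrion-specific protein of the small subunit, was at 5.70, 5.70 and 6.05 in the infarct core at 1 week, 5.65, 5.80 and 5.88 at 4 weeks and 5.47, 5.67 and 5.45 at 6 weeks, against 5.06, 5.64 and 5.62 in control myocardium. These ranges overlapped at 6 weeks and just cleared at 1 and 4 weeks. Its log2 FC was 0.38, 0.34 and 0.09 (SE 0.16, adjusted p = 0.071 at 1 week).

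A second comparison set the infarct core against the remote myocardium of the same pigs, with the pig as a block, and uses none of the control arrays. The regions also differ in site (left ventricular scar and septum), which this comparison cannot tell apart from infarction. The genes lower in the infarct core numbered 66, 71 and 70 in order of stage. One gene each was higher at 1 and 4 weeks (MRPS34 and TOMM34) and 0 at 6 weeks. Over all probe sets 34%, 35.5% and 32.6% passed this test, and 17.2%, 18.7% and 17.7% were lower; above the brightness limit 27.9%, 29.3% and 25% were lower. The median log2 FC was -0.91, -1.07 and -0.86. A call downwards at all 3 stages was reached by 66 genes, against 10.3% of all probe sets. Lower at all 3 stages than both RM and CM were 56 genes. The share of all probe sets that met both criteria was not counted, but it can be no higher than 10.3%. Both criteria use the same infarct core arrays. Without pig 5 the count at 6 weeks was 43 (median log2 FC -0.67), and the share of all probe sets that passed was 17.8%. Without either of the other pigs of that stage the count was at most 66.

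The difference within a pig was negative in all 9 pigs for 68 genes (88.3%), where 19.5% of all probe sets and 26.9% of those above the brightness limit showed this. For 5 further genes, MRPL43, MRPS10, MRPS14, MRPS23 and MRPS30, it was positive in pig 7 and negative in the other 8 pigs. MRPL35 was lower in 7 pigs, TOMM5 in 6, MRPS34 in 4 and TOMM34 in 1. The median difference over the 77 genes was -0.62, -1.01 and -1.07 in pigs 7, 8 and 9 at 1 week, -1.05, -0.87 and -1.25 in pigs 18, 20 and 22 at 4 weeks, and -0.63, -0.69 and -1.20 in pigs 2, 3 and 5 at 6 weeks. Pigs 7, 2 and 3 thus had the smaller falls, and pigs 22 and 5 the larger. The corresponding median over all probe sets lay between -0.09 and -0.03 in every pig.

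TIMM44 was the gene with the largest paired fall at 1 week. It read 5.41, 5.81 and 6.21 in the remote myocardium at 1 week and 5.90, 5.47 and 5.28 at 4 weeks, far above the infarct core values given earlier for the same pigs. The paired log2 FC was -1.60, -1.75 and -1.38 at 1, 4 and 6 weeks (SE 0.16 each, limma adjusted p = 3.8e-05, 2.0e-05 and 1.6e-04). At 1 week it was followed by MRPL28 (-1.50), MRPS35 (-1.49) and MRPL46 (-1.47). MRPS28 had the largest paired fall at 4 weeks (-1.77, SE 0.24, adjusted p = 2.5e-04) and at 6 weeks (-1.46, adjusted p = 0.0013), with MRPL46 (-1.73) and MRPL39 (-1.61) beside it at 4 weeks and MRPL38 (-1.31) and MRPL46 (-1.31) at 6 weeks. With the mean of its probe sets, one of which was above 3 in 0 arrays, MRPL46 had -1.08 at 4 weeks and -0.80 at 6 weeks, both past the test.

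By family, 34, 35 and 35 of 37 MRPL genes, 17, 21 and 20 of 22 MRPS genes, 11 of 11 TIMM genes at each stage and 4 of 7 TOMM genes at each stage were lower in the infarct core than in the remote myocardium. Some genes that missed the threshold against the controls passed it here. MRPL36 had -0.47, -0.66 and -0.60, MRPS12 had -0.59, -0.65 and -0.55 and TIMM22 had -0.85, -0.45 and -0.46, past the test at each stage. TIMM22 in the remote myocardium was 5.29, 5.55 and 5.79 at 1 week, against 4.74, 4.99 and 5.25 in control myocardium, a log2 FC of 0.55 that did not pass the test (SE 0.20, limma adjusted p = 0.31).

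The 6 genes not lower in any paired comparison were MRPL35, MRPL52, MRPS34, TOMM5, TOMM22 and TOMM34. MRPS34 was higher at 1 week by 0.38 (SE 0.12, limma adjusted p = 0.036), with differences of 0.23, 0.52 and 0.40 in pigs 7, 8 and 9; without pig 8 the adjusted p was 0.197 and without pig 9 it was 0.141. TOMM34 was higher at 4 weeks by 0.59 (SE 0.20, adjusted p = 0.038), with differences of 0.48, 0.24 and 1.06 in pigs 18, 20 and 22; without pig 22 the value was 0.36 (adjusted p = 0.259) and without pig 18 it was 0.65 (adjusted p = 0.0831). Without the replicate block the call of TOMM34 was lost too (adjusted p = 0.0534). Both calls were also lost with median centring and with centring on ribosomal protein genes (adjusted p from 0.0633 to 0.194).

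**Figure D4:**
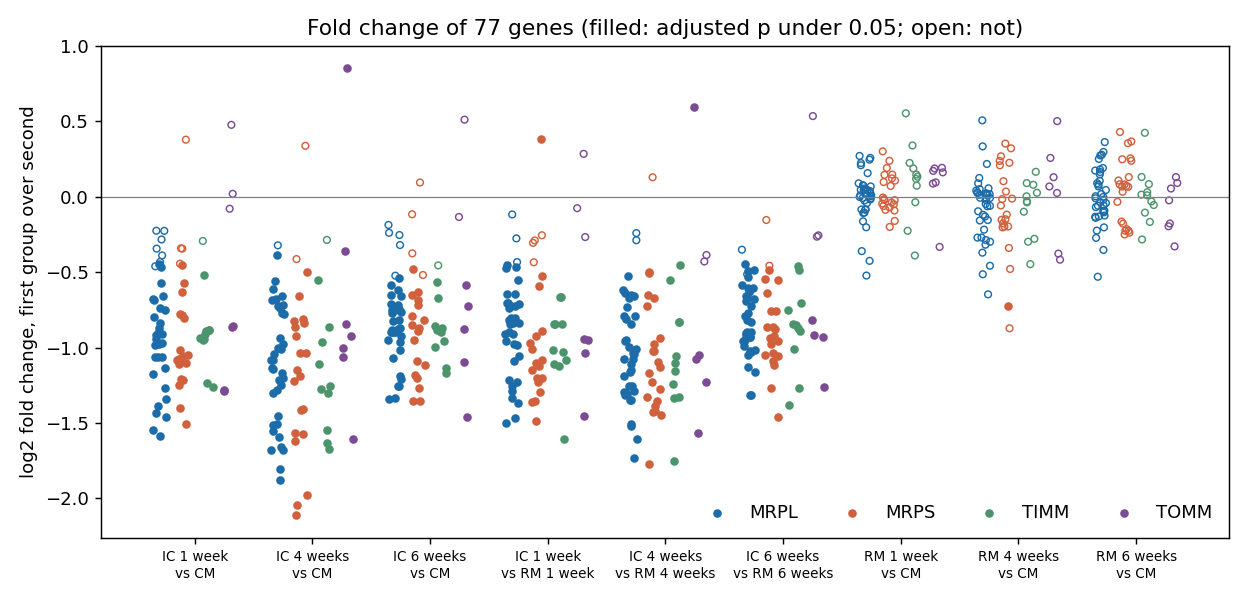
Log2 fold change of each of the 77 genes (points, coloured by family; filled where the limma adjusted P value was under 0.05) in 9 comparisons. The infarct core medians are -0.91, -1.08 and -0.86 against CM and -0.91, -1.07 and -0.86 against RM, and remote myocardium values scatter around 0.

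In the remote myocardium the same genes had median log2 FC values near 0 against control myocardium. None passed the limma test at 1 or 6 weeks, and 1 gene, MRPS35, was lower at 4 weeks, where 0.444%, 0.605% and 0.158% of all probe sets passed at 1, 4 and 6 weeks. At an unadjusted p under 0.05 there were 4, 8 and 7 of the 77 genes, and 9.95%, 12.6% and 12.8% of all probe sets. All 3 remote arrays were below all 3 control arrays for 4, 19 and 5 genes in order of stage (8.83%, 9.9% and 7.78% of all probe sets), and above them for 3, 4 and 8 genes (8.34%, 11.3% and 11.1%). The median log2 FC was 0.04, -0.02 and 0.01. The 95% intervals of single genes had half-widths between 0.239 and 0.636. They lay wholly within 0.5 of 0 for 40, 36 and 41 genes and within 1 for 77, 72 and 77 genes. These intervals were not adjusted for the number of probe sets. An estimate smaller than its half-width could not pass the test with 3 arrays per group, and a larger one could still miss it. MRPS36 at 4 weeks had a log2 FC of -0.87 (mean level 5.64, against 6.51 in control myocardium) and did not pass.

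MRPS35 in the remote myocardium was at 6.97, 7.21 and 7.45 at 1 week, 6.55, 6.52 and 6.42 at 4 weeks and 6.89, 6.87 and 7.20 at 6 weeks, against 7.11, 7.21 and 7.35 in control myocardium. The 3 arrays at 4 weeks were below all controls and below all other remote arrays. The log2 FC at 4 weeks was -0.73 against control myocardium (SE 0.15, limma adjusted p = 0.030) and -0.71 against the remote myocardium at 1 week (SE 0.15, adjusted p = 0.025). The first of these calls was lost when any one of the 6 arrays was left out (adjusted p from 0.0513 to 0.121, log2 FC from -0.78 to -0.66).

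Between stages, few of the genes passed the test. In the infarct core at 4 weeks, compared with 1 week, 1 gene was higher and 7 were lower, and 7.91% of all probe sets passed. The median log2 FC was -0.24. All 3 arrays at 4 weeks were below all 3 at 1 week for 20 of the 77 genes and above them for 6 (11.9% and 13% of all probe sets). MRPL1 fell by 1.12 (SE 0.17, limma adjusted p = 6.8e-04), with levels of 5.61, 5.75 and 5.32 at 4 weeks, against 6.73, 6.51 and 6.82 at 1 week. MRPS30, which later structures place in the large subunit, fell by 1.07 (SE 0.23, adjusted p = 0.0089). It read 3.02, 3.01 and 2.86 at 4 weeks, at the brightness limit, against 4.31, 3.79 and 4.00 at 1 week. In both genes the stages did not overlap. At 1 week their log2 FC against control myocardium had been -0.43 for MRPL1 and -0.34 for MRPS30, which did not pass the test.

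The small TOM subunit TOMM5 (-0.87), the peptidyl-tRNA hydrolase MRPL58 that rescues stalled ribosomes (-0.86), MRPL50 (-0.77), TIMM50 (-0.69) and MRPS35 (-0.61) also fell between 1 and 4 weeks, with adjusted p from 0.016 to 0.030. TOMM5 was at 8.10, 8.49 and 7.31 at 4 weeks, against 8.89, 8.71 and 8.90 at 1 week, so pig 22 carried much of the change, and without pig 22 the log2 FC was -0.54 (adjusted p = 0.0699). MRPL10 was higher at 4 weeks, at 6.71, 6.65 and 6.80, against 6.17, 6.37 and 6.06 at 1 week (log2 FC 0.52, SE 0.15, adjusted p = 0.037). The count of 8 became 2 without pig 9, 2 without pig 22, 3 without pig 7 and 4 without pig 18. The share of all probe sets that passed fell too, to 3.35%, 6.26%, 5.19% and 4.39% in the same order. The calls of MRPL50, MRPL58, TIMM50 and TOMM5 were each lost without pig 7, 9 or 22, that of MRPL50 also without pig 8 or 18 and that of MRPL58 also without pig 18 (adjusted p from 0.0536 to 0.126). MRPS35 lost its call without pig 7, 9, 18 or 22 (adjusted p from 0.055 to 0.0807) and MRPL10 without pig 7, 9, 18, 20 or 22 (0.0514 to 0.156). With the mean of its probe sets TIMM50 had -0.50 (adjusted p = 0.0826).

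At 6 weeks, compared with 4 weeks, 3 genes of the infarct core were higher and 0 lower, where 2.86% of all probe sets passed, and the median log2 FC was 0.30, against 0.02 over all probe sets. All 3 arrays at 6 weeks were above all 3 at 4 weeks for 17 of the 77 genes (9.33% of all probe sets). The genes that passed were MRPS35 (0.76, SE 0.15, limma adjusted p = 0.0092), MRPS27 (0.75, SE 0.20, adjusted p = 0.048) and TIMM44 (0.72, SE 0.19, adjusted p = 0.045). Left out in turn, pigs 20, 22 and 3 gave a count of 1 each, pig 2 a count of 0 and pig 5 a count of 9. In that order 2.57%, 1.6%, 1.91%, 1.14% and 3.93% of all probe sets passed. The call of MRPS35 was lost without pig 2 (adjusted p = 0.0540), that of MRPS27 without pig 20, 22, 2 or 3 (0.0516 to 0.186) and that of TIMM44 without pig 18, 20, 22, 2 or 3 (0.0513 to 0.132). With the mean of its probe sets TIMM44 had 0.36 (adjusted p = 0.201), which did not pass. Compared with 1 week, MRPL28 was higher at 6 weeks by 0.53 (SE 0.13, adjusted p = 0.012) and MRPS30 lower by 0.75 (SE 0.23, adjusted p = 0.047), where 11.1% of all probe sets passed. This count of 2 became 1 without pig 7, 9 or 3 and 5 without pig 5. The shares of all probe sets that passed were 6.43%, 6.04%, 6.37% and 11% in those fits. MRPL28 lost its call without pig 7 (adjusted p = 0.0654) and MRPS30 without pig 7, 9, 3 or 5 (0.105 to 0.214). With the pig as a random replicate block the count was 1, since MRPS30 had an adjusted p of 0.0537.

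In the remote myocardium MRPS35 alone passed the test between 4 weeks and 1 week, where 0.908% of all probe sets passed. Without pig 8, 9, 20 or 22 the count was 0 (0.423%, 0.439%, 0.174% and 0.24% of all probe sets). Without pig 18 it was 2 (1.47%). With all pigs, 14 genes had an unadjusted p under 0.05 (14.2% of all probe sets). For 14 genes all arrays at 4 weeks were below all at 1 week (9.9%). Between 6 weeks and 1 or 4 weeks 0 genes passed in limma (0.149% and 0.808% of all probe sets), with 3 and 7 genes at an unadjusted p under 0.05 (14.5% and 13.1% of all probe sets). The paired difference between infarct core and remote myocardium was also tested between stages. In limma 0 of 77 genes passed for 4 weeks minus 1 week, 6 weeks minus 1 week and 6 weeks minus 4 weeks, where 0.344%, 0.435% and 0.00415% of all probe sets did, and 4, 3 and 1 genes had an unadjusted p under 0.05, as did 9.91%, 12.6% and 6.84% of all probe sets. The intervals of these differences had half-widths between 0.353 and 0.842, so smaller stage differences of a single gene were not detectable. Across the 77 genes, the paired log2 FC at 1 week correlated with that at 4 weeks at r = 0.852 and with that at 6 weeks at 0.808, and 4 and 6 weeks at 0.936. These are correlations across genes, which are not independent replicates, and the 12180 brighter probe sets gave 0.908, 0.877 and 0.944.

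Genes that work beside these were measured on the same arrays. Of the nuclear-encoded respiratory chain subunits 53, 55 and 54 of 56 were lower in the infarct core than in control myocardium at the 3 stages, and 1 was higher at each stage (median log2 FC -1.09, -1.44 and -0.87). Of the mitochondrial translation factors and aminoacyl-tRNA synthetases 17, 18 and 18 of 23 were lower and 1 higher at each stage (medians -0.95, -1.04 and -0.76). The elongation factors TSFM (-1.93 at 4 weeks, limma adjusted p = 9.0e-08) and GFM1 (-1.64 at 4 weeks) had the largest falls, and GARS, a glycyl-tRNA synthetase that also serves the cytosol, was higher by 0.52 at 1 week.

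Import partners, proteases and folding factors that act with the TIM and TOM complexes were lower in 13, 15 and 15 of 19 genes (medians -0.83, -0.92 and -0.75). Among them were TRAP1, the mitochondrial HSP90 (-1.70 at 1 week), and DNAJC19, a co-chaperone of the import motor (-1.67 at 4 weeks). Of 7 regulators of mitochondrial biogenesis 3, 4 and 3 were lower and 1, 0 and 0 higher. PPARGC1A, the coactivator known as PGC-1alpha, fell by 3.13 at 1 week (SE 0.47, limma adjusted p = 4.1e-05), the mitochondrial ribosomal RNA methyltransferase TFB1M fell by 1.12, and PPRC1, a relative of PPARGC1A, was higher by 0.73, all at 1 week. Markers of mitochondrial mass were lower in 13, 13 and 11 of 14 genes (medians -1.12, -1.29 and -0.70). SLC25A5 of this list went the other way at 1 week and was higher by 1.39 (SE 0.24, limma adjusted p = 1.4e-04).

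The cytosolic ribosome did not follow the mitochondrial ribosome. Of its 61 measured protein genes 23, 28 and 20 were higher in the infarct core and 0, 1 and 0 lower, with medians of 0.22, 0.24 and 0.17. Of all probe sets 17.4%, 17.4% and 14.5% were higher, and of those above the brightness limit 26%, 25.3% and 21%. With cyclic loess 54, 53 and 46 of the 61 genes were higher. With arrays centred on their median 12, 19 and 11 were higher. The shares of all probe sets higher under these settings are not given here. Centring on the 61 genes themselves sets their median to 0 by construction. Centring on them moved the median of all probe sets to -0.33, -0.24 and -0.22, and median centring to -0.21, -0.14 and -0.09. Under these 3 scalings the median of the 77 mitochondrial genes stayed below 0, between -1.25 and -0.69.

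**Figure D5:**
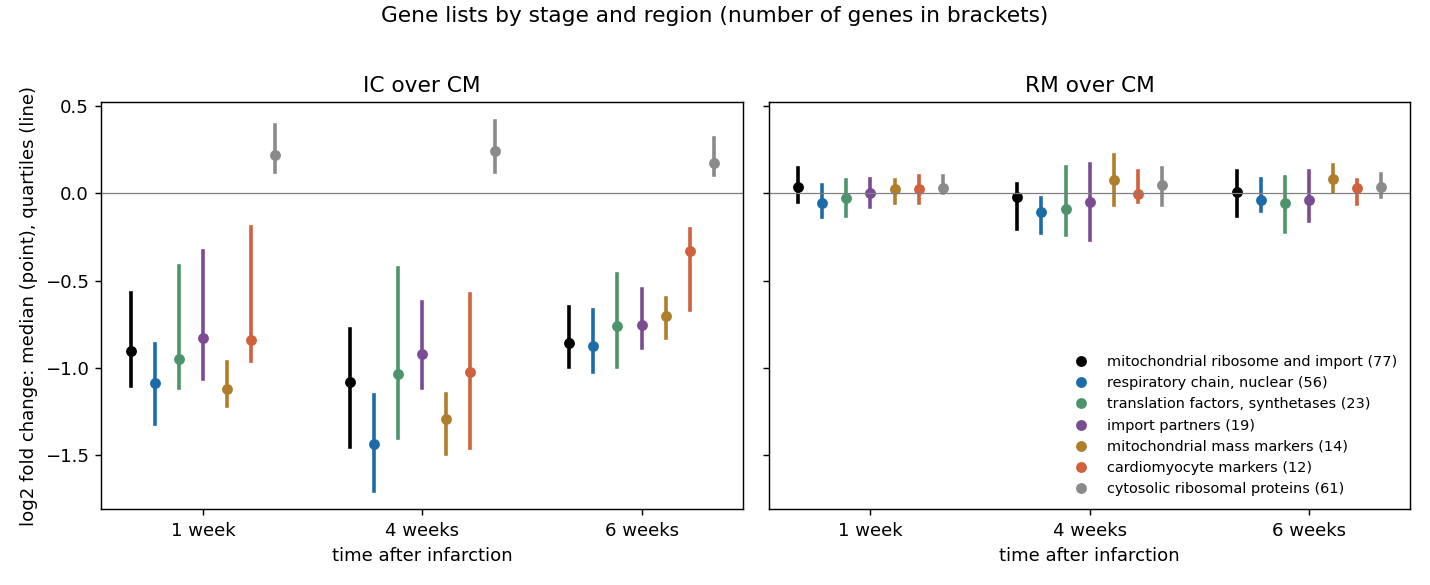
Median (point) and quartiles (line) of the log2 fold change over the genes of 7 lists, for IC over CM (left) and RM over CM (right) at each of 3 stages (horizontal axis); the number of genes is in brackets. The mitochondrial lists lie between -0.7 and -1.5 in the infarct core, cardiomyocyte markers move back towards 0 at 6 weeks, cytosolic ribosomal proteins lie just above 0, and every list is near 0 in the remote myocardium.

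Markers of several cell types also differed between infarct core and control myocardium. For scale, 17.4%, 17.4% and 14.5% of all probe sets were higher at 1, 4 and 6 weeks, and 19.5%, 19.9% and 15.7% lower. Above the brightness limit 26%, 25.3% and 21% were higher and 28.2%, 29.1% and 26% lower. Of 12 cardiomyocyte markers 7, 9 and 5 were lower and 1, 0 and 0 higher than in control myocardium (median log2 FC -0.84, -1.03 and -0.33). Their summed linear level was 34818 to 41144 at 1 week, 24247 to 36543 at 4 weeks and 38495 to 48564 at 6 weeks, 52412 to 55979 in the remote myocardium over the 3 stages, and 52034 to 55652 in control myocardium. Of 10 fibroblast markers 9 were higher at each stage (medians 2.65, 3.24 and 3.06), and their summed level was 9761 to 10711, 10709 to 12529 and 8646 to 11128 in the infarct core, 1246 to 2211 in the remote myocardium and 1230 to 2219 in control myocardium. Of 10 macrophage and leukocyte markers 7, 3 and 3 were higher, with sums of 703 to 982 at 1 week, 365 to 659 at 4 weeks and 247 to 488 at 6 weeks, 123 to 174 in the remote myocardium and 116 to 156 in control myocardium. The leukocyte markers PTPRC, ITGAM, CD14 and CD79B, and the endothelial markers FLT1 and KDR, were above 3 in 0 arrays, so the corresponding cells were represented by the other markers of their lists.

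Other cell types were represented by 6 smooth muscle and pericyte markers, of which 3 were higher and 1 lower at each stage, by 8 endothelial markers (1, 0 and 0 higher; 2, 0 and 2 lower) and by 10 proliferation genes (10, 4 and 6 higher). Of 2 erythrocyte markers 1, 2 and 2 were lower. The endothelial counts did not exceed the shares of brighter probe sets given above. The leukocyte counts at 4 and 6 weeks were close to those shares. Summed levels in the infarct core at 1, 4 and 6 weeks were 3779 to 4564, 3655 to 3947 and 2945 to 3240 for smooth muscle (1724 to 2171 in control myocardium), 409 to 550, 380 to 884 and 499 to 506 for endothelium (527 to 686 in control myocardium) and 212 to 388, 82.2 to 151 and 91.0 to 166 for proliferation (64.2 to 85.0 in control myocardium). In the remote myocardium 0 cardiomyocyte, fibroblast, endothelial, leukocyte or proliferation markers passed the test at any stage, 1 erythrocyte marker was lower at each stage and 1 smooth muscle marker was higher at 4 weeks. The part of these shifts in the result was not tested.

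Array by array, the median difference of the 77 genes from the control mean was -0.73, -1.03 and -0.86 in the infarct core at 1 week, -1.10, -0.94 and -1.25 at 4 weeks and -0.61, -0.83 and -1.04 at 6 weeks. That of the cardiomyocyte markers on the same arrays was -0.71, -0.998 and -0.58, then -0.68, -1.03 and -1.35, then -0.12, -0.36 and -0.60. At 1 and at 6 weeks the cardiomyocyte markers were thus closer to the control level than the mitochondrial genes in all 3 pigs, by little in pigs 7 and 8, and at 4 weeks they were closer in pig 18 alone. Several cardiac markers lay near the top of the intensity scale, where differences are compressed, so the sizes of the falls in these lists cannot be set against each other strictly.

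Of the genes with several probe sets, 23 probe sets were not chosen. Of these, 11 were above 3 in at least 10 arrays, and the others were dim and less likely to be called in either direction. In the infarct core against control myocardium 15, 17 and 13 of the 23 were lower at 1, 4 and 6 weeks and 0 were higher. None was called in the direction opposite to the chosen probe set of its gene. Of the 11 brighter ones, 2 did not pass at each stage. For TIMM44 the other probe sets gave -1.17 and -0.88 at 1 week, and for TIMM50 the other gave -0.90 at 1 week and -1.22 at 4 weeks, all passing the test.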

How the data were processed

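RNA of 21 tissue samples was hybridized to the GeneChip Porcine Genome Array, and the deposited table holds log2 expression values of 24123 probe sets that the authors made by RMA (background correction, quantile normalization and probe summarization). Quantile normalization gives every array the same distribution, so values are relative to the rest of the array. Array medians lay between 2.95 and 3.12. Precision is limited by how few arrays each group holds. The versions of RMA and limma used by the authors are not given in the sources used here.

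Gene symbols came from the platform annotation. It gave 10140 probe sets a single symbol, 157 several and 13826 none. The 5 probe sets that share a member symbol with another gene were left out, and so were genes without a probe set of a single symbol. RefSeq identifiers matched 75 of the 77 members, and 0 symbols differed. Group membership came from the labels.

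All probe sets were fitted with limma 3.58.1 (R 4.3.3) as 7 group means, without a filter because the choice of members had none, with 14 residual and 3.92 prior degrees of freedom. P values were adjusted by Benjamini-Hochberg within each comparison over all probe sets, and an adjusted p under 0.05 was called. Infarct core and remote myocardium were compared within pigs in another fit, to the 18 arrays of infarcted animals, that gave each pig a fixed term (6 residual and 4.49 prior degrees of freedom). The pairing comes from the pig numbers in the labels. After removal of group means, the arrays from one animal had correlations of 0.0714 to 0.491, in 9 of 9 pigs higher than with the other pigs of the stage. Whether the arrays of a group reflect more than differences between animals, such as dissection, cannot be told.

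Members and gene lists were chosen with earlier results of these data known. Named genes were the 6 called members with the largest fall and rise per comparison of infarct core with control, the 4 with the largest per paired comparison, every member called in the remote myocardium, up to 6 called between stages, the 2 with the smallest P value per family, members never above the brightness limit, and up to 2 called rises and falls per other list. Others were named for their role, or to complete a count, after their values were seen. The fit was tested on simulated data over 24123 probe sets, with 100 changed by a log2 FC of 1 and 100 by 2. At 1 week, infarct core against control, 75 and 93 of these were recovered with 6 false calls. The paired fit gave 58, 90 and 4. The simulation had no pig effect and changed far fewer probe sets than were called in the infarct core, so these rates do not carry over to the real comparisons. Alternatives were a filter (above 3 in at least 10 arrays), cyclic loess, centring on ribosomal protein genes or on the median, trend and robust settings, the mean of a gene's probe sets, other uses of the pig as a block, fits of only the groups compared, and leaving out each array. Nothing in the deposited table or the labels gives a scan batch.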

Additional observations from a re-analysis of the deposited data

Results flagged for a closer look

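The infarct core and the remote myocardium of the same pigs differed in 67 of the 77 genes at 1 week, 72 at 4 weeks and 70 at 6 weeks by the paired limma fit, while neither region's count against the controls alone tests that difference. Of all probe sets 34%, 35.5% and 32.6% differed, and of those above the brightness limit 52.6%, 54.7% and 47.7%. The counts of the 77 genes were flagged because the regions of one heart differed. The median paired log2 FC was -0.91, -1.07 and -0.86, where the remote medians against control myocardium were 0.04, -0.02 and 0.01. Groups of 3 arrays are too small for a search for single outlying arrays.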

How the results depend on the processing

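The counts of genes that differed between infarct core and control myocardium stayed within 61 to 69 at 1 week, 68 to 75 at 4 weeks and 61 to 72 at 6 weeks under the 8 other settings, and between 57 and 64, 69 and 73, and 57 and 68 with 1 array left out. The paired counts were 65 to 69, 70 to 74 and 67 to 73. With 1 pig left out they were 50 to 69, 62 to 68 and 43 to 66. The lowest, 43, was without pig 5, where 17.8% of all probe sets passed. Without the replicate block the paired counts were 66, 71 and 70. No called value changed its direction under any alternative run. Medians near 0 did: that of the remote myocardium at 6 weeks against 4 weeks was 0.09, and -0.02 with centring on ribosomal protein genes, and those of the other remote comparisons and of the infarct core at 6 weeks against 1 week also lay on both sides of 0, within -0.15 and 0.19. Comparisons with few calls moved. Remote myocardium at 4 weeks against control had 1 call, and 0 with centring on ribosomal protein genes, in a fit of the 2 groups alone and in each of the 6 fits with 1 array left out (0 to 0). Infarct core at 4 weeks against 1 week had 8, and 3 with ribosomal centring, 2 in a fit of the groups alone, and 2 to 9 with 1 array left out. At 6 weeks against 1 week there were 2, and 4 with cyclic loess or median centring, 1 with ribosomal centring, trend and robust settings or the pig as a random replicate block, 0 in a fit of the groups alone, and 1 to 5 with 1 array left out. At 6 weeks against 4 weeks there were 3, and 1 with ribosomal centring, 0 in a fit of the groups alone, and 0 to 9. Remote myocardium at 4 weeks against 1 week had 1, and 0 with ribosomal centring or the groups alone, and 0 to 2. Fits of the groups alone have fewer arrays to estimate the spread. In those fits 0.419%, 2.38%, 5.37%, 0.145% and 0.352% of all probe sets passed, in the order given. The other causes were not tested. The call of TOMM34 in the paired comparison at 4 weeks was lost without the replicate block; the other use of the pig as a block changed no call of a named gene except that of MRPS30 at 6 weeks against 1 week, and no count by over 1.5 times except in that comparison. Genes near the lower end of the scale (MRPS23, TOMM70, MRPS30, TOMM34) limit what their fold changes can show.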
